A study of Mus musculus with 14 samples.

Results

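The E2F family of cell-cycle transcription factors was followed in mouse liver with and without Mettl3 in hepatocytes. The set was chosen by gene symbol and held 10 genes, E2f1 to E2f8 and the DP partners Tfdp1 and Tfdp2, out of 54446 genes in the deposited table. All 10 were found once each, and all 10 passed the filter on low values that left 23554 genes for testing. The livers came from the C57BL/6 strain, were taken at the age of 5 weeks and frozen on dry ice, and gave total RNA. There were 6 control livers, labelled Mettl3 floxed, and 8 knockout livers, labelled Mettl3 floxed, Alb-Cre, so that both groups carry the floxed gene and only the knockouts carry the recombinase. Alb-Cre is driven by the albumin promoter and deletes in hepatocytes, so endothelial, stellate and immune cells of the same liver keep Mettl3. METTL3 is the enzyme that methylates adenosines of mRNA to m6A. The series title names hepatocyte ploidy among its subjects, and the comparison of the groups asks how loss of Mettl3 changes liver RNA.

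E2F proteins bind the promoters of genes for DNA replication and division, and most of them do so as a heterodimer with a DP protein. E2F1, E2F2 and E2F3 activate these genes once the retinoblastoma protein is released, while E2F4 and E2F5 work with the pocket proteins p107 and p130 to keep them silent in resting cells. E2F6 represses through Polycomb proteins, and the atypical members E2F7 and E2F8 repress without DP and are themselves E2F targets. In the postnatal liver E2F7 and E2F8 are known for promoting the formation of polyploid hepatocytes, an action that E2F1 opposes.

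The value of a gene in a library was its normalised estimated count. The depth per library was 11.1 to 33.8 M estimated reads (M, megareads). Sex was not labelled, and sex-linked RNA divided the libraries: 4 controls and 4 knockouts had Y-linked RNA (Y-positive), and 2 controls and 4 knockouts had high Xist (Xist-high). The Xist-high libraries were also the shallow ones, at 11.1 to 19.3 M estimated reads against 24.3 to 33.8 M in the Y-positive ones, so that class and depth cannot be told apart. Mettl3 checked the labels: its value lay between 199 and 263 in controls, and between 76.9 and 122 in knockouts, without overlap. Alb, the albumin gene and a defining hepatocyte marker, was high in every library. Its values were 140884 to 229192 in controls and lower, at 61317 to 120119, in knockouts, without overlap. The labels do not state that each liver is from a separate mouse, so p-values measure only the spread between these samples. In whole liver, fewer cells of a type and less RNA per cell cannot be told apart.

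Between the groups, 2 of the 3 activators rose, and on the deposited scale both canonical repressors fell. The test was limma on log2(value + 1), knockout minus control, with an adjusted p of at most 0.05 over all genes tested. Of the 10 genes, 3 rose (E2f1, E2f3 and Tfdp1), 3 fell (E2f4, E2f5 and Tfdp2) and 4 did not pass (E2f2, E2f6, E2f7 and E2f8). Over all genes tested, 11.5% rose and 11% fell, or 22.4% in either direction. The median log2 change over the 10 genes was 0.33, and over all genes tested it was 0.05. By the authors' deposited table, whose q passed 17.1% of genes, 6 of the 10 passed a q of at most 0.05.

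The falls depended on the scaling of the libraries. With each library scaled to an equal sum outside ribosomal RNA, the median of all genes tested shifted by 0.329 on the log2 scale, and the share of calls that were higher went from 51.1% to 90.03%. Under that scaling 33.3% of genes rose and 3.69% fell. E2f1, E2f3, E2f7 and Tfdp1 rose and 0 of the 10 fell (5 of the 10, in either direction, had an unadjusted limma p under 0.05), with log2 changes of -0.17 for E2f4, -0.28 for E2f5 and -0.24 for Tfdp2. Quantile normalization, which gives every library the same distribution of values, kept the 3 falls. They were -0.52 for E2f4 (limma adjusted p = 0.00752), -0.69 for E2f5 (0.0033) and -0.54 for Tfdp2 (0.00658). Unless another scaling is named, values and changes here use the deposited one.

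Promoters of the family were read for the E2F consensus, because several E2F genes are known to be E2F targets themselves. Windows of 250 bases before to 50 after each start came from RefSeq (GRCm38.p6), and the search was for TTTCCCGC, TTTGGCGC, TTTCGCGC and TTTGCCGC on both strands, overlaps counted. Windows matched 8 of the 10 genes, and E2f4 and E2f5 had none. A match stood in 4 of the 8 (E2f2, E2f3, E2f7 and Tfdp1), or 50%, against 2.6% of all 27025 genes with a window. The E2f1 window and both Tfdp2 windows lie wholly inside the longer gene models of GENCODE, so they do not cover the starts used there. The matching stretches upstream of the start are shown for E2f3 and Tfdp1, which rose, for the atypical E2f7, and for Mcm6, the target gene with the largest change, with the consensus in capitals.
E2f3 (chr13:29986064-29986123, minus strand, -60 to -1): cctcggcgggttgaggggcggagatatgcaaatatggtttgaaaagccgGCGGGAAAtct
Tfdp1 (chr8:13338681-13338740, plus strand, -70 to -11): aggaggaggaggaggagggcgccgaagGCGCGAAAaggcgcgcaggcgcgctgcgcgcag
E2f7 (chr10:110745214-110745273, plus strand, -225 to -166): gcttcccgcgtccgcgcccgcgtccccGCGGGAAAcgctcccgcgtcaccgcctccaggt
Mcm6 (chr1:128359736-128359825, minus strand, -120 to -31): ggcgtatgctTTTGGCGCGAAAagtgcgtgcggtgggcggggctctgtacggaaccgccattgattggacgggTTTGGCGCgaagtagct
The E2f3 and E2f7 matches are the same form, read on the strand opposite to the gene, 11 and 198 bases before the start. In Mcm6 there are 3 matches, of which the pair on opposite strands overlaps. Genes with the consensus thus include members that rose (E2f3 and Tfdp1) and members that did not pass (E2f2 and E2f7).

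**Figure D1:**
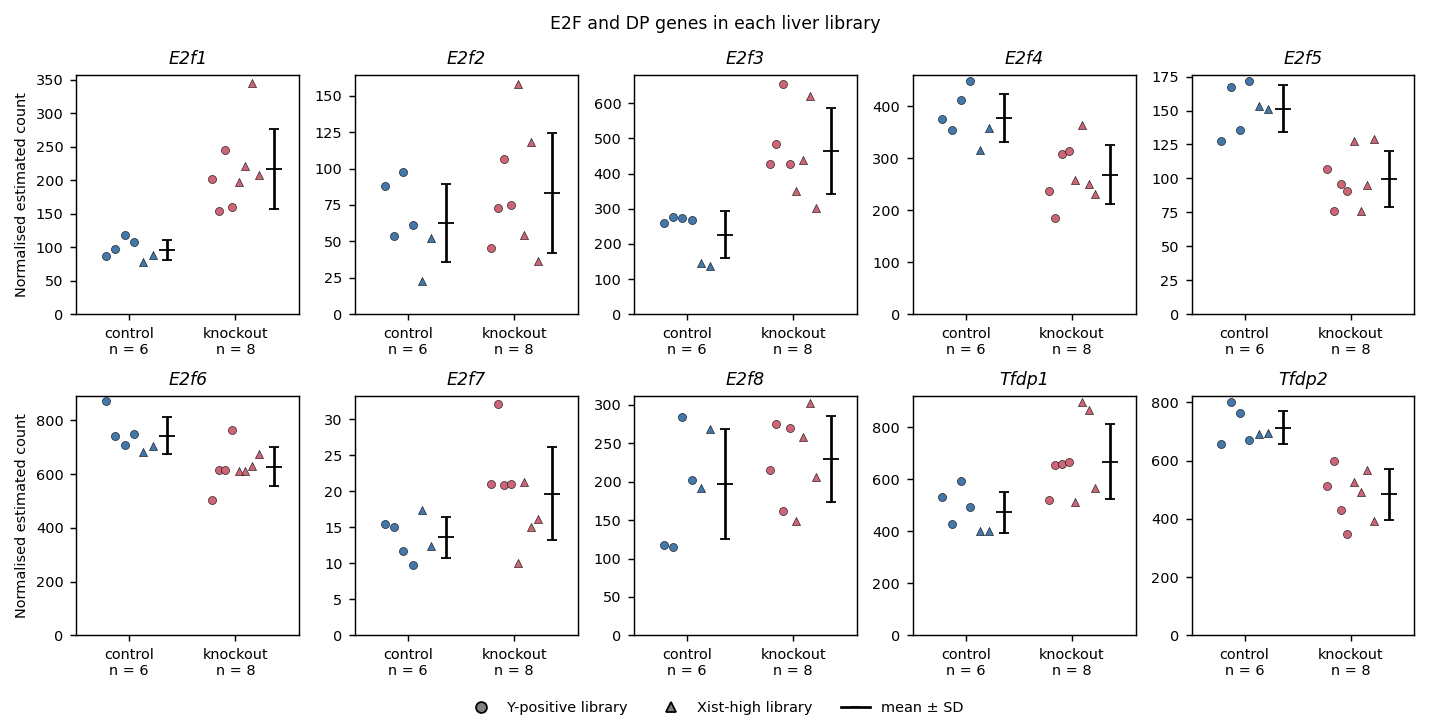
Normalised estimated count (y axis, linear from 0) of each of the 10 genes in 6 control and 8 knockout livers; circles are Y-positive and triangles Xist-high libraries, and the bar beside each group is its mean ± SD. E2f1 and E2f3 lie higher in 8 of 8 knockouts than in any control and Tfdp2 lies lower in 8 of 8 with the deposited scaling. The groups overlap for E2f2, E2f4, E2f5, E2f6, E2f7, E2f8 and Tfdp1.

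E2f1, an activator that also drives its own program of S phase genes, showed the clearest rise of the family in terms of its error. Its gene lies on chromosome 2, 154559407 to 154569892, minus strand of GRCm38. The lowest, median and highest values were 77.3, 93.6 and 118 in controls, and 154, 205 and 345 in knockouts. The groups did not overlap, which held for 4.14% of genes tested in this direction, and the highest value was that of knockout 7. Group means were 96.2 ± 14.8 (SD, n = 6) for controls and 216 ± 59.7 (SD, n = 8) for knockouts. On the log2 scale the rise was 1.13 (SE 0.16, limma adjusted p = 0.000223), or 2.19-fold.

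E2f3, the activator that is needed for normal S phase entry in many cell types, rose by nearly the same amount. The gene lies on chromosome 13, 29906575 to 29986063, minus strand. Values ran from 136 through a median of 264 to 276 in controls and from 302 through 433.5 to 655 in knockouts. The groups did not overlap, yet the controls were split: the 2 Xist-high controls stood at 136 and 146, and the 4 Y-positive ones at 260.4 to 276. E2f3 rose by 1.05 on the log2 scale (SE 0.21, limma adjusted p = 0.00234), or 2.07-fold.

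E2f2, the remaining activator (chromosome 4, 136172394 to 136196057, plus strand), did not pass. Its values were 22.9, 57.3 and 97.9 (lowest, median, highest) in controls and 36.7, 73.9 and 158 in knockouts. The ranges overlapped over most of their length, and 3 of 8 knockouts lay above the highest control. The log2 change was 0.39, with a 95% interval of -0.36 to 1.13 (limma adjusted p = 0.467), and the upper end of that interval equals the change of E2f1.

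The canonical repressors moved the other way on the deposited scale. E2f4, the most abundant partner of p130 in resting cells (chromosome 8, 105297663 to 105305370, plus strand), had values of 315, 366 and 448 in controls and 185, 254 and 363 in knockouts. In 7 of 8 knockouts it lay below the lowest control, knockout 6 being the exception. It fell by 0.51 on the log2 scale (SE 0.14, limma adjusted p = 0.0158). E2f5, a related repressor (chromosome 3, 14578641 to 14606309, plus strand), had values of 128, 152 and 172 in controls and 75.8, 95.5 and 129 in knockouts. Here 6 of 8 knockouts lay below the lowest control, and knockouts 5 and 8 reached the level of control 1. It fell by 0.61 (SE 0.14, limma adjusted p = 0.00554). Neither fall passed with equal sums (adjusted p = 0.385 for E2f4 and 0.1395 for E2f5).

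E2f6, the Polycomb-linked repressor (chromosome 12, 16810963 to 16839742, plus strand), lay at 681, 726 and 874 in controls and 504, 615 and 764 in knockouts. Values in 7 of 8 knockouts were below the lowest control. The log2 change of -0.25 (SE 0.09) missed the threshold (limma adjusted p = 0.0702), passed without knockout 4 (-0.29, 0.0312), and turned to 0.09 with equal sums (0.486).

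The atypical repressors did not pass. E2f8 (chromosome 7, 48866429 to 48881596, minus strand) had values of 116, 198 and 285 in controls and 149, 236.5 and 303 in knockouts. The controls alone spanned nearly the whole range of both groups, and 1 of 8 knockouts lay above the highest control. The log2 change was 0.27, with a 95% interval of -0.22 to 0.75 (limma adjusted p = 0.44). E2f7 (chromosome 10, 110745439 to 110787384, plus strand) was the least expressed of the 10 in reads, with 5.88 to 44.6 estimated reads per library. Its values were 9.75, 13.7 and 17.4 in controls and 10.1, 20.9 and 32.2 in knockouts, and 5 of 8 knockouts lay above the highest control. The log2 change was 0.46, with a 95% interval of -0.03 to 0.95 (limma adjusted p = 0.167), and it passed with equal sums (0.78, 0.0226).

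The DP partners, which bind DNA together with E2F1 to E2F6 as heterodimers, moved apart. Tfdp1 (chromosome 8, 13338751 to 13378448, plus strand) had values of 399.9, 459 and 594 in controls and 512, 657 and 896 in knockouts. The groups overlapped, but 8 of 8 knockouts lay above the control mean, with knockouts 6 and 7 highest at 896 and 865. It rose by 0.48 on the log2 scale (SE 0.14, limma adjusted p = 0.0257). This call was lost without knockouts 3, 6 and 7 (0.31, adjusted p = 0.112), a subset chosen with earlier results of these data known. The call was lost too without control 2 (0.0548), 5 (0.0600) or 6 (0.0595) alone. It was also lost with no filter on low values (0.0533), and within Y-positive (0.29, 0.168) and Xist-high libraries (0.78, 0.206). Tfdp2 (chromosome 9, 96196275 to 96323646, plus strand) had values of 656, 693 and 801 in controls and 349.6, 503 and 599 in knockouts. The groups did not overlap, as for 4.02% of genes tested in this direction. Tfdp2 fell by 0.58 (SE 0.12, limma adjusted p = 0.00302), a call that was lost with equal sums (adjusted p = 0.1698).

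**Figure D2:**
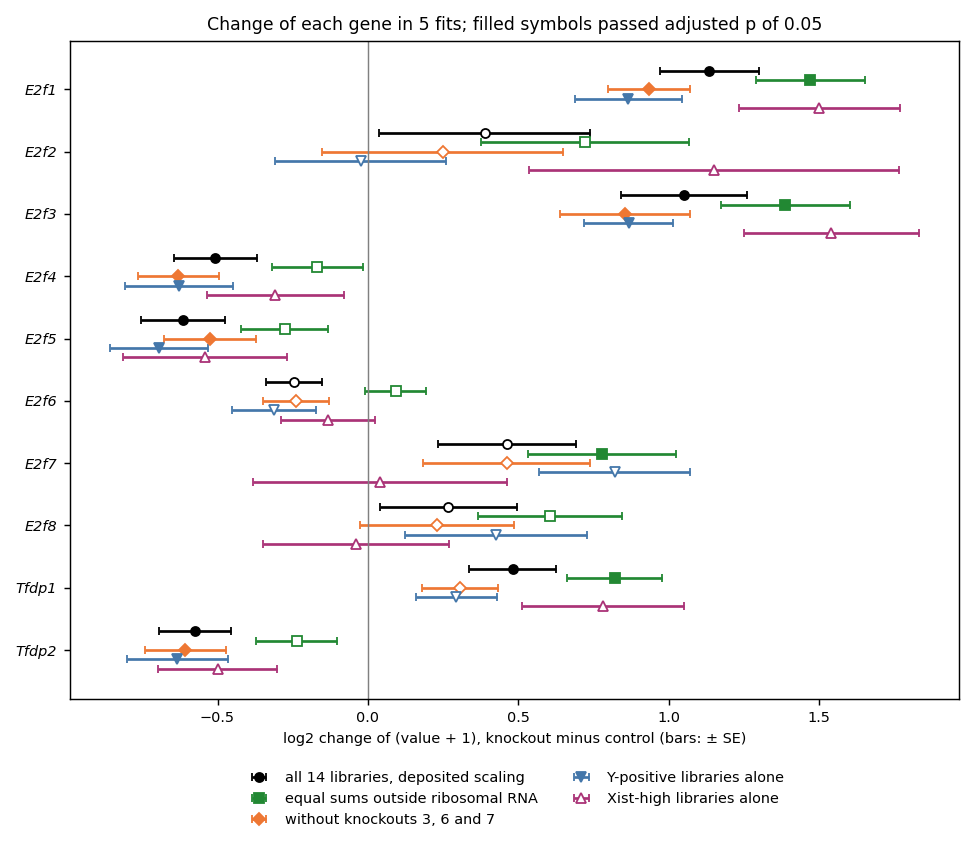
Log2 change (x axis, knockout minus control, bars ± SE) of the 10 genes in 5 fits: all 14 libraries with the deposited scaling, equal sums outside ribosomal RNA, without knockouts 3, 6 and 7, and each Xist class alone. Filled symbols passed an adjusted p of 0.05: E2f1 and E2f3 stay above 0.85 in all 5, whereas E2f4, E2f5 and Tfdp2 move towards 0 with equal sums and E2f6 crosses it.

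Ratios within a library are free of the scaling. They show that the genes of a pair changed by unequal amounts, and not which of them moved. They were picked after the values were seen and are given as a description, with no test. Each sets a gene that rose over one that fell on the deposited scale, so the choice itself favours a separation of the groups. The ratio of E2f1 to E2f4 was 0.233, 0.247 and 0.287 (lowest, median, highest) in controls and 0.513, 0.812 and 1.38 in knockouts, a 3.14-fold difference of geometric means. The ratio of Tfdp1 to Tfdp2 was 0.532, 0.656 and 0.807 in controls and 0.974, 1.48 and 1.91 in knockouts, a 2.08-fold difference. For E2f3 to E2f4, E2f1 to E2f5 and E2f3 to E2f5 the differences were 2.95-fold, 3.39-fold and 3.18-fold. In each of these 5 ratios 8 of 8 knockouts lay above the highest control. Without knockouts 3, 6 and 7 the difference was 2.98-fold for E2f1 to E2f4 and 1.89-fold for Tfdp1 to Tfdp2.

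**Figure D3:**
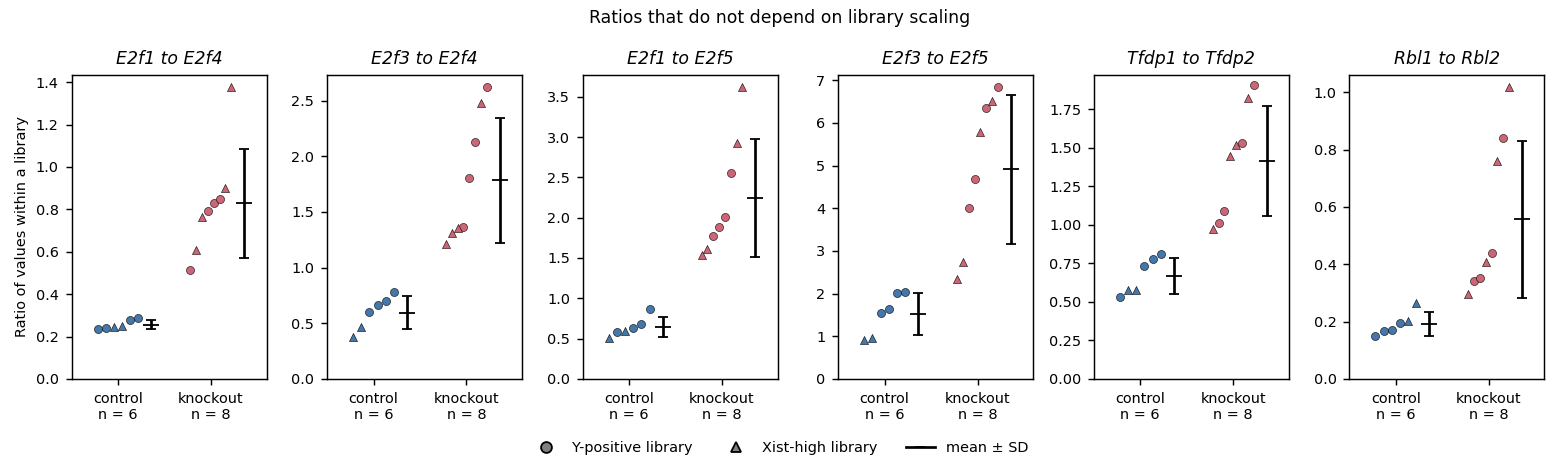
Ratio of the values of 2 genes within a library (y axis, linear from 0) in 6 controls and 8 knockouts, for 5 pairs within the family and for Rbl1 to Rbl2; symbols mark the Xist class, libraries are ordered by value, and bars give mean ± SD. Every knockout lies above the highest control in all 6 panels, for example at 0.974 or more against 0.807 or less for Tfdp1 to Tfdp2. The pairs were picked after the values were seen, each as a gene that rose over one that fell, which favours such a separation.

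The contrast between activators and atypical members did not pass in the planned test of the difference itself, and it did in some of its alternatives. For each of 6 pairs the log2 difference within a library was compared between the groups by an exact permutation test over 3003 splits, two-sided, with adjustment over the 6 pairs. E2f1 exceeded E2f8 by 0.87 more in knockouts than in controls (unadjusted 95% interval 0.26 to 1.49, exact p = 0.0117, adjusted p = 0.0699). The difference between E2f3 and E2f8 was 0.78 (0.01 to 1.57, exact p = 0.04995, adjusted p = 0.108). Against E2f7 the differences were 0.67 for E2f1 (-0.05 to 1.39, exact adjusted p = 0.108) and 0.59 for E2f3 (-0.07 to 1.24, exact adjusted p = 0.108). E2f2 gave -0.07 against E2f7 (-1.20 to 1.08) and 0.12 against E2f8 (-0.94 to 1.18), both with an exact adjusted p of 0.891. With a pseudocount of 10 in place of 1, 3 of the 6 pairs passed (0.76 for E2f1 to E2f7, 0.81 for E2f1 to E2f8 and 0.71 for E2f3 to E2f7, each with an exact adjusted p of 0.0273). A pseudocount of 10 is close to the values of E2f7 (9.75 to 32.2) and shrank its log2 change from 0.46 to 0.31. The change of E2f1 went from 1.13 to 1.065, and the difference for E2f1 to E2f8 went down from 0.87 to 0.81. With a pseudocount of 1, E2f1 to E2f8 passed without control 2, knockout 2 or knockout 4 (exact adjusted p = 0.0373, 0.0385 and 0.0455), E2f3 to E2f8 without control 2 (0.0373), and E2f1 to E2f7 without knockout 2 (0.0437). So E2f1 and E2f3 rose and E2f7 and E2f8 did not pass, yet whether a difference between these changes passed depended on the pseudocount and on single livers, and the intervals for E2f1 and E2f3 reach 1.24 to 1.57.

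The size of the contrast differed with the class of library. In Xist-high libraries alone E2f1 exceeded E2f8 by 1.54 more in knockouts, and in Y-positive libraries by 0.44. Against E2f7 the values for E2f1 were 1.46 and 0.05. These class values were not tested against each other.

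**Figure D4:**
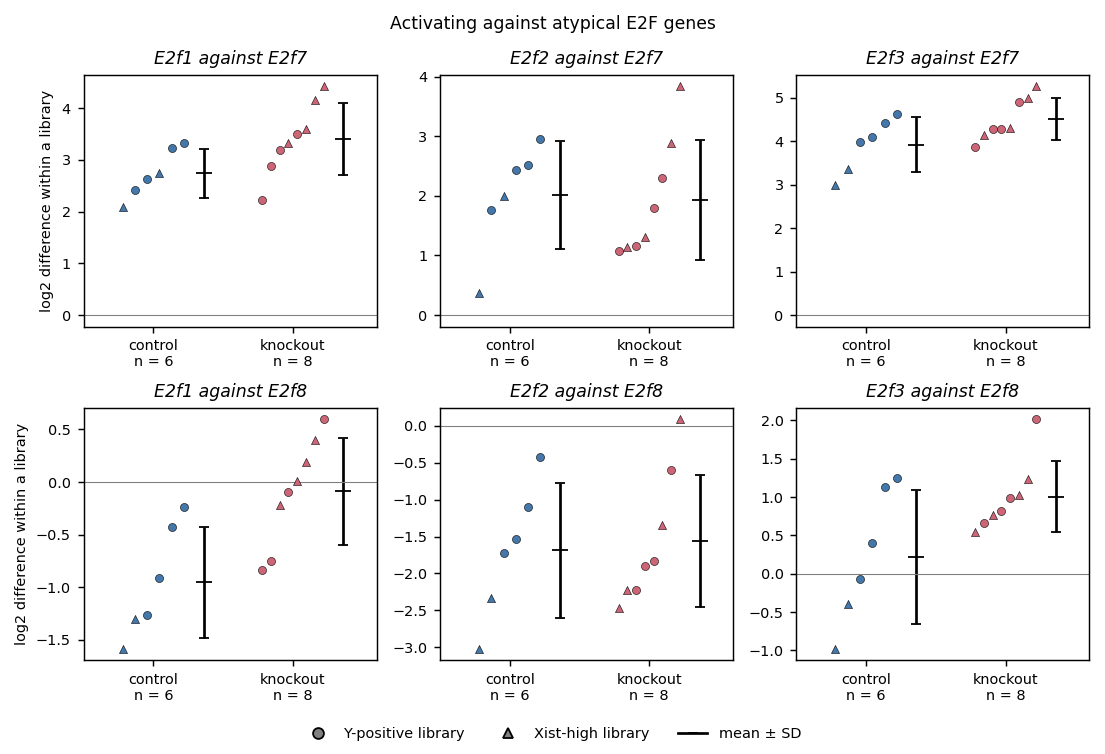
Log2 difference within a library (y axis) between an activating E2F gene and an atypical one, for 6 pairs in 6 controls and 8 knockouts; symbols mark the Xist class, libraries are ordered by value within each group, and bars give mean ± SD. Knockouts lie higher on average for E2f1 and E2f3 (by 0.59 to 0.87), with overlap in every panel, and not for E2f2 against E2f7.

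Within the Y-positive libraries, where 15.7% of genes passed, 5 of the 10 passed: E2f1 (0.87), E2f3 (0.87), E2f4 (-0.63), E2f5 (-0.70) and Tfdp2 (-0.63). E2f7 was 0.82 there (limma adjusted p = 0.0527), against 0.04 in the Xist-high libraries, where it had 18.4 estimated reads or fewer. Within the 6 Xist-high libraries 0.93% of all genes passed and 0 of the 10 did, with 4 at an unadjusted limma p under 0.05. The changes there were 1.5 for E2f1 (limma adjusted p = 0.0521) and 1.54 for E2f3 (0.0617), larger than in the Y-positive libraries. E2f2 went from -0.02 in Y-positive to 1.15 in Xist-high libraries, and E2f8 from 0.43 to -0.04. The difference between classes itself passed for 0.0552% of all genes and for 0 of the 10 by limma (smallest adjusted p = 0.824), with 1 at an unadjusted p under 0.05 (E2f3, 0.0487).

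Whether members varied together from library to library was tested within the groups. After each group mean was taken off, 45 pairs of members were compared over 14 libraries, which share depth and Xist class. The strongest positive relation was E2f3 with Tfdp1 (Pearson r = 0.61, permutation p = 0.0225, adjusted p = 0.317; Spearman rho = 0.59, permutation p = 0.0295, adjusted p = 0.3103). Its r was 0.54 without the 2 libraries farthest out. The strongest negative one was E2f5 with Tfdp1 (r = -0.67, permutation p = 0.00899, adjusted p = 0.202; rho = -0.67, permutation p = 0.0115, adjusted p = 0.3103; r = -0.57 without 2 libraries). None of the 45 passed the adjustment.

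The genes most like 3 of the members were taken from 10569 protein-coding genes by the highest r of these deviations over the 14 libraries. They were picked for a high r, so no p is given for r, and the likeness is within the groups and not in the change between them. For E2f1 they were Neo1 (r = 0.92, rho = 0.90), Sftpd (0.91, 0.86), Ovca2 (0.91, 0.89), Rbmx (0.89, 0.74) and Cyb561a3 (0.89, 0.77). For E2f7 they were Brca2 (r = 0.83, rho = 0.69), Gxylt2 (0.83, 0.83), Slco1a6 (0.82, 0.79), Gnaq (0.82, 0.87) and Zfp369 (0.81, 0.77). For E2f8 they were 6030458C11Rik (r = 0.78, rho = 0.81), Usp54 (0.78, 0.72), Rbm47 (0.73, 0.69), Tbc1d4 (0.72, 0.70) and Smyd2 (0.71, 0.76).

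Classical E2F targets rose in part. Of 28 genes on that list 27 were tested, 10 rose, 1 fell and 16 did not pass, and 26 of the 27 changes were above 0. Over all genes tested 11.5% rose and 11% fell, and 54.7% of changes were above 0. With equal sums 21 targets rose and 0 fell, beside 33.3% and 3.69% of all genes. In Y-positive libraries alone 2 rose and 0 fell, beside 7.39% and 8.3% of all genes. In Xist-high libraries alone 2 rose and 0 fell, beside 0.73% and 0.2%. Over all 14 libraries on the deposited scale, the median log2 change of the targets was 0.53, against 0.05 over all genes. Mcm6, a subunit of the replicative helicase, had values of 48.3, 66.0 and 99.8 in controls and 172, 358 and 861 in knockouts, and it rose by 2.38 (SE 0.34, limma adjusted p = 0.000185). Mcm2, another subunit, had values of 30.6, 43.1 and 50.7 in controls and 103, 160 and 390 in knockouts (1.99, limma adjusted p = 7.94e-05). Neither gene overlapped between the groups, which held for 3 of the 27 tested targets and for 4.14% of all genes tested in this direction. Uhrf1, which maintains DNA methylation through replication, rose by 2.14 (limma adjusted p = 0.00619). Tk1, the thymidine kinase, was the 1 gene that fell, by 0.68 (limma adjusted p = 0.0168), a call lost with equal sums (adjusted p = 0.112) and without knockouts 3, 6 and 7 (0.0969).

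Other targets did not pass. Picked out after their values were seen, the G1 cyclins Ccne1 (0.12) and Ccne2 (0.18) and the sliding clamp Pcna (0.09) were among the genes with small changes, with limma adjusted p values of 0.84, 0.732 and 0.811. The 95% interval for Pcna was -0.37 to 0.54. Larger changes also did not pass, and those named here were picked out afterwards too. They were Ccna2 (1.01, limma adjusted p = 0.0624), Rrm2 (0.83, 0.0835), Cdt1 (0.67, 0.0730), Cdc25a (0.64, 0.0725) and Mcm7 (0.53, 0.0521). Promoter windows matched 22 of the 28 targets, and 12 of these (54.5%) held the consensus, in 6 of the 9 that rose and 6 of the other 13. Without knockouts 3, 6 and 7 the targets that rose numbered 6 in place of 10, beside 9.19% of all genes. Mcm6 was then at 1.88, Mcm2 at 1.64 and Uhrf1 at 1.37.

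**Figure D5:**
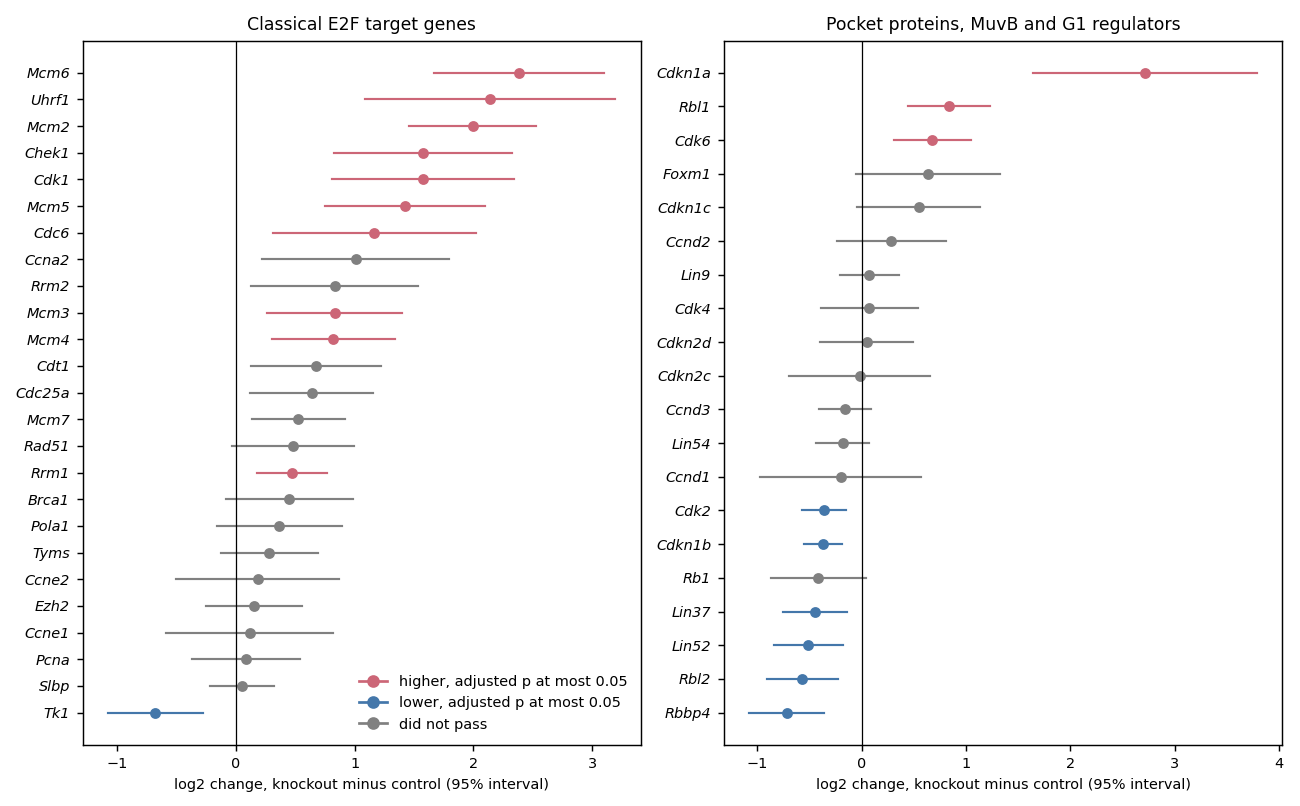
Log2 change (x axis, knockout minus control, deposited scaling) with its 95% interval for tested E2F target genes (left, some that did not pass are not drawn) and for pocket proteins, MuvB subunits and G1 regulators (right); colour shows which passed an adjusted p of 0.05. Among targets 10 rose and Tk1 fell, while on the right Cdkn1a, Rbl1 and Cdk6 rose and 6 genes fell, none of which passed with equal sums except Rbbp4.

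The pocket proteins bind E2F and hold it inactive, and the MuvB subunits join them in the DREAM complex. Of 10 genes 9 were tested, 1 rose and 4 fell, beside 11.5% and 11% of all genes tested. Rbl1, which encodes p107 and is itself an E2F target, rose from values of 43.3, 56.7 and 67.6 to 60.5, 97.2 and 139 (log2 change 0.84, limma adjusted p = 0.00432). Rbl2, which encodes p130, went from 256, 308 and 320 to 134, 197 and 298 (-0.57, limma adjusted p = 0.0196). The histone chaperone gene Rbbp4 fell by 0.71 (limma adjusted p = 0.00695), and the MuvB genes Lin37 (-0.45) and Lin52 (-0.51) complete the count. By the authors' deposited q neither Lin37 (0.0811) nor Lin52 (0.0608) passed. Lin37 also lost its limma call without any 1 of controls 2 to 5 or of knockouts 2, 5, 7 and 8, and Lin52 without control 1, control 4 or knockout 3. Rbl2, Lin37 and Lin52 did not pass with equal sums (adjusted p = 0.216, 0.551 and 0.362) or without knockouts 3, 6 and 7 (0.0903, 0.0909 and 0.0847). The ratio of Rbl1 to Rbl2 reached at most 0.264 in controls, while no knockout lay below 0.295 (highest 1.02). This pair too was picked as a gene that rose over one that fell, and its ratio was not tested.

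Upstream of E2F, 11 of 13 G1 kinases, cyclins and inhibitors were tested. Of these 2 rose and 2 fell, beside 11.5% and 11% of all genes tested. Cdkn1a, which encodes the kinase inhibitor p21, rose by 2.71 (limma adjusted p = 0.00141) and Cdk6, a kinase that phosphorylates the retinoblastoma protein, by 0.68 (0.0105). Cdkn1b, which encodes p27, fell by 0.37 (limma adjusted p = 0.00657), and Cdk2, named to complete the count, by 0.36 (0.0172). Cdk2 did not pass by the authors' deposited q (0.0617). The D cyclins did not pass. With equal sums Cdkn1b (adjusted p = 0.815) and Cdk2 (0.881) no longer passed, and without knockouts 3, 6 and 7 Cdk6 did not (0.0515).

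Among the 10 Polycomb partners of E2F6, 0 rose and 1 fell, beside 11.5% and 11% of all genes tested, and 9 did not pass. Cbx3, a heterochromatin protein, was the 1 that fell (-0.41, limma adjusted p = 0.0482). With equal sums its change was -0.07 (adjusted p = 0.757), and with the deposited scaling it lost the call without any 1 of controls 1 to 6 or of knockouts 1 to 4. Of 5 germline genes listed as silenced by E2F6, 2 could be tested and neither passed, with Smc1b at 0.83 (limma adjusted p = 0.248). The other, Stag3, was not silent in these livers, with values of 54.1 to 530 in controls and 52.2 to 317 in knockouts (-0.19, limma adjusted p = 0.841). Of 4 genes of E2F protein turnover 0 passed, and Cdc20, the mitotic activator of the APC/C, was closest at 2.83-fold (limma adjusted p = 0.0506). The log2 change of Cdc20 was 0.76 without knockouts 3, 6 and 7 (adjusted p = 0.248), and it passed with equal sums (1.80, 0.0170) and without control 3 (0.0490), knockout 2 (0.0340), knockout 4 (0.0364) or knockout 5 (0.0385). With a pseudocount of 10 in place of 1 and all 14 libraries, its log2 change shrank to 0.906 and did not pass (limma adjusted p = 0.0686).

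Markers of some other cells moved with the groups as well. Their counts stand beside shares of 11.5% of all genes tested that rose and 11% that fell. Of 6 markers of recruited macrophages 3 rose (Ccr2, Trem2 and Cx3cr1), and the 6 together summed to 106 to 166 per control and 160 to 952 per knockout. Most of this lay in knockouts 3, 6 and 7 (664, 871 and 952), the others being at 160 to 216, and the same 3 had the highest Cdkn1a (481, 520.4 and 549.6, against 49.9 to 162 in the other knockouts). Gpnmb, which did not pass (limma adjusted p = 0.0521), made up much of these sums, with values of 203, 614 and 639 in knockouts 3, 6 and 7. Knockouts 3, 6 and 7 were chosen for leaving out with earlier results of these data known, so the fits without them are not an independent check. Without these 3, 18.4% of all genes passed and 5 of the 10 family genes did, with E2f1 at 0.93 and E2f3 at 0.85. Of 6 bile duct markers 2 rose (Sox9 and Epcam), with sums of 656 to 1384 in controls and 954 to 1499 in knockouts. Of 6 hepatocyte markers 4 fell (Alb, Ttr, Cps1 and Hnf4a) and 0 rose, with Alb at -1.07 (limma adjusted p = 0.00105). Among the tested markers of Kupffer cells (6), T and NK cells (5), B cells (5), neutrophils (2) and erythroid cells (7), 0 passed by limma, and of endothelial and stellate cell markers 2 and 1 of 6 fell. No marker was listed at 0 in every library. The part of these cells in the E2F changes was not tested.

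Because Mettl3 writes m6A, mainly at a GGAC core, the member transcripts were also searched for GGACT. In the longest protein-coding transcript of each gene in GENCODE M21, E2f4 had 1.505 per kb and E2f3 1.18, against a median of 1.01 per kb over 21877 genes. E2f1 had 0.726, E2f7 0.731 and Tfdp2 0.68. Tfdp1 had 0 matches in 2511 bases. The genes that rose (E2f1, E2f3 and Tfdp1) and those that fell (E2f4, E2f5 and Tfdp2) covered overlapping ranges, 0 to 1.18 and 0.68 to 1.505 per kb.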

How the data were processed

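Values per library, deposited by the authors, were normalised signal values: estimated counts per gene divided by 1 size factor, as read from the values, where low ones pile up on multiples of 1 number per library. Per the submitters' processing notes the tools were kallisto and sleuth and the build mm10, with versions not given in the sources used here. The authors deposited each gene's p-value, q-value and change, the last as a natural log (ln) difference. The table of 75859 lines was reduced to 54446 genes. Because the values were not counts, limma (version 3.58.1, R 4.3.3, prior variance allowed to follow the mean level) was fitted to log2(value + 1), for genes that reached 10 in 6 or more libraries, with Benjamini-Hochberg adjustment. The log2(value + 1) scale understates changes of low genes such as E2f7. Depth was the sum of values over the worth of 1 read, and no counting interval was given. Pairs of genes were tested by exact permutation. Scripts were tested on simulated data. Members, lists and tests were chosen with earlier results of these data known. Named genes were all members, Mettl3, the 3 called genes with the largest change in each list (or the 1 with the smallest p), and the 5 genes most like E2f1, E2f7 and E2f8, and others are said to be picked afterwards. Subset fits kept the same genes. Some target genes are counted but not reported here by name. Exons of E2f5, E2f7, E2f8 and Mettl3 overlap genes on the other strand in GENCODE M21 (GRCm38), and the strand setting of the quantification was not given. Alternatives were other pseudocounts, filters, thresholds and scalings, the authors' q, covariates, single classes, a replicate block, and libraries left out.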

Additional observations from a re-analysis of the deposited data

Results flagged for a closer look

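In 22 groups of values, those of Mettl3 and the 10 family genes in controls and in knockouts, 1 library stood apart from the rest of its group. E2f6 was 873.6 in control 1, and the other controls were at 681 to 751, so that the gap to the next library was 0.639 of the range. Chance alone marks about 5% of groups. Without control 1 the log2 change of E2f6 was -0.20 (limma adjusted p = 0.163), against -0.25 with it, and it did not pass in either case.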

How the results depend on the processing

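Over 27 alternatives the 10 family genes gave 270 values, of which 247 kept direction and side of the threshold. In 18 a call was lost, in 2 one was gained, and in 3 the sign turned: E2f6 with equal sums (0.0920), E2f2 in Y-positive libraries (-0.0244) and E2f8 in Xist-high libraries (-0.0387), none of which passed with all 14 libraries and the deposited scaling. Called members numbered 3 higher and 3 lower, 0 lower with equal sums, and 0 in each direction in Xist-high libraries. Leaving out 1 library gave 2 to 3 higher and 3 to 4 lower. Targets called higher and lower were 10 and 1. They were 6 and 0 at a threshold of 0.01 and without knockouts 3, 6 and 7, 21 and 0 with equal sums, 2 and 0 in either class alone, and 6 higher with log2 depth as a covariate. They were 7 to 12 and 1 with 1 library left out. For activator against atypical pairs a pseudocount of 10 gave 0.76 (E2f1 to E2f7), 0.81 (E2f1 to E2f8) and 0.71 (E2f3 to E2f7), each with an exact adjusted p of 0.0273, and 0.0275 for E2f2 to E2f7. That pseudocount also shrank the change of the low gene E2f7 from 0.46 to 0.31. Leaving out 1 library gave 0.53 to 0.84 for E2f1 to E2f7, 0.74 to 1.01 for E2f1 to E2f8, 0.40 to 0.73 for E2f3 to E2f7, 0.54 to 0.99 for E2f3 to E2f8, -0.40 to 0.12 for E2f2 to E2f7 and -0.14 to 0.38 for E2f2 to E2f8. E2f1 to E2f8 passed without control 2 (exact adjusted p = 0.0373), knockout 2 (0.0385) or knockout 4 (0.0455), E2f3 to E2f8 without control 2 (0.0373), and E2f1 to E2f7 without knockout 2 (0.0437). The cause of these changes was not tested.

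Replicate numbers 1 to 6 are shared by the groups, but same-numbered livers correlated by 0.07 to 0.23 in their deviations, over 0.1 for 5 of 6 numbers, and 2 of 6 correlated best with their own number. Since 1 number stayed under 0.1 and the labels name nothing that a number shares, the fit without the block was kept, and whether the numbers mark a shared factor is not settled. With the replicate block Tfdp1 lost its call (0.45, adjusted p = 0.0746), members called were 2 higher and 3 lower, and targets called lower were 0. In the 6 pairs of shared number E2f1 to E2f8 differed by 0.81 (exact sign-flip adjusted p = 0.4375). Knockouts 7 and 8 have no control of their number and were left out. With 6 pairs this test has few possible outcomes and little room to pass, so no conclusion is drawn from it.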
